A study of Mus musculus with 3 samples.

Results

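Arterial endothelial cells were studied in 3 single-cell libraries of mouse bone marrow, and they were chosen by the genes they expressed. A barcode, the tag of 1 droplet, counted as arterial when it passed a filter (500 genes or more detected, mitochondrial UMIs no more than 10%, where a UMI is a unique molecular identifier that stands for 1 captured transcript), when it held at least 5 UMIs summed over the endothelial genes Cdh5, Pecam1, Eng and Kdr with at least 1 of Cdh5, fewer than 50 of Cxcl12 and at most 1 of Stab2, and when at least 2 of the 6 arterial markers Sox17, Sema3g, Fbln2, Gja4, Gja5 and Bmx were detected. These conditions held for 335 of the 8423 endothelial barcodes, out of 15624 barcodes in all. WT, FLOX and VC held 58, 189 and 88 arterial barcodes. The remaining endothelial barcodes, which met the same conditions apart from those on Stab2 and the markers, numbered 3062, 3321 and 1705 and are called other endothelial barcodes.

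Each library stands for 1 genotype on the C57Bl/6JCrl strain, and all mice had been given tamoxifen by gavage. WT mice carried no named modification, FLOX mice were homozygous for a floxed Vegfc allele (Vegfc flox/flox), and VC mice carried Cdh5CreERT2 together with Vegfc flox/flox. Cdh5CreERT2 is a tamoxifen-activated Cre recombinase driven by the VE-cadherin promoter, which is active in endothelium, and Vegfc encodes a growth factor of lymphatic and venous endothelium. The cells are labelled as endothelial and LepR+ stromal cells of marrow that was flushed from tibias and digested with collagenase and dispase. A VE-cadherin antibody had been injected into the blood, and antibodies to LepR, CD45 and Ter119 were added to the cells. The labels name neither the age of the mice nor how many went into a library. With 1 library for each genotype there are no replicates, so no test between genotypes was made, all intervals cover counting error only, and a difference between genotypes cannot be told apart from a difference between libraries. Only FLOX and VC share the floxed allele, and a control with Cre and no floxed allele was not analysed here.

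Arteries carry blood into the marrow through a few large vessels that branch into arterioles and capillaries and drain into the sinusoids, wide and leaky venous vessels that make up most of the marrow endothelium. Arterial identity is set by Notch signalling, in which ligands such as Dll4 and Jag1 on one cell activate receptors such as Notch1 and Notch4 on the next and switch on Hey1 and Efnb2, together with transcription factors of the SOX family such as Sox17. Gja4 and Gja5 encode connexins 37 and 40, the gap junction proteins of arterial endothelium, Sema3g a secreted semaphorin, Fbln2 a matrix protein and Bmx a cytosolic tyrosine kinase. Marrow arterioles are also known as a source of stem cell factor (Kitl) and Cxcl12 for blood stem cells.

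Some arterial barcodes also held RNA of other cell types. A barcode was counted as mixed when neutrophil granule genes made up at least 1% of its UMIs, when it held at least 3 UMIs of the leukocyte gene Ptprc, or when it held at least 10 UMIs of mural, fibroblast, erythroid, myeloid progenitor, B lineage or megakaryocyte markers. There were 1 such barcodes in WT, 13 in FLOX and 7 among those of VC. In FLOX and VC they carried most of the granule RNA. The granule genes S100a8, S100a9, Ngp, Camp and Ltf summed to 332, 25596 and 25497 CPM (a gene's UMIs per 1000000 UMIs of the barcodes summed, the unit of all levels below) over the arterial barcodes of WT, FLOX and VC. Without the mixed barcodes they summed to 293, 178 and 114 CPM. Mki67 and Top2a, genes of dividing cells, together had 4, 392 and 119 UMIs with, and 4, 5 and 4 UMIs without the mixed barcodes. Adipoq, the defining marker of the LepR+ stroma, had 0, 1 and 2 UMIs over all arterial barcodes. Haemoglobin RNA was highest in VC, with Hbb-bs at 68.9, 11.2 and 171 CPM. The libraries shared 10 barcode sequences between WT and FLOX, 6 between WT and VC and 5 between FLOX and VC, and none of these was arterial in both libraries. Median depth was 11754, 6376 and 9106.5 UMIs per arterial barcode, and the totals behind the levels were 710870, 1604359 and 980145 UMIs in WT, FLOX and VC.

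The markers were checked against each other by choosing barcodes with the other 5 and reading the one left out, which describes how they go together in cells selected on them. In FLOX and VC every left-out marker was far more frequent than in the rest of the endothelium. Sema3g was detected in 84.4, 93.1 and 94.2% of the barcodes chosen without it in WT, FLOX and VC, against 12.4, 13.3 and 18.0% of the rest. Fbln2 was detected in 52.3, 89.7 and 82.4%, against 4.32, 4.58 and 4.42%. Gja4 was detected in 42.3, 53.2 and 58.6%, against 1.60, 1.32 and 1.29%. Sox17 was the least specific, at 54.5, 67.6 and 77.6% against 33.2, 21.9 and 25.7%. Gja5 and Bmx, by contrast, had no UMI in any of the 58 WT barcodes, which allows up to 5.17% of barcodes with a UMI, with 3 counts as the limit that a count of 0 allows. Gja5 was found in 13.2% of FLOX and 13.6% of VC barcodes, and Bmx in 19.0% and 15.9%. In WT 4 of the 6 markers were thus detected, and in FLOX and VC all 6. Choosing without Gja5, or without Bmx, still gave 58, 189 and 88 barcodes in WT, FLOX and VC, as many as with all 6. Neither gene alone therefore decided which barcodes counted as arterial. Leukocyte-like barcodes, those with Ptprc and no endothelial or stromal marker, held no Gja5. Bmx was detected in 15.6, 9.44 and 14.5% of them in WT, FLOX and VC, so Bmx was not particular to arterial barcodes.

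The promoters of 2 markers are shown because they hold the letters ACAAT, a core of SOX binding sites, and because the libraries differ in these genes: Gja4 was detected in all 3, and Bmx in arterial barcodes of FLOX and VC but not WT. Each sequence is the 250 bases before the annotated start in the RefSeq table of build GRCm38.p6, read 5′ to 3′ on the gene's strand, with matches on either strand in capitals. Gja4 lies at chr4:127314040-127314289 on the minus strand, and Bmx at chrX:164258194-164258443 on the minus strand. Of the 6 markers 5 had an entry, 2 of these held a match, and 30.9% of all genes in the table did.
Gja4: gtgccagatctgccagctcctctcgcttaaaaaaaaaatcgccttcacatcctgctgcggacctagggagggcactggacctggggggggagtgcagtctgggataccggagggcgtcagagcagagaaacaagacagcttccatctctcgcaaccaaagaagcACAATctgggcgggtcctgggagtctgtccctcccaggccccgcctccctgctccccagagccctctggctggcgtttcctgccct
Bmx: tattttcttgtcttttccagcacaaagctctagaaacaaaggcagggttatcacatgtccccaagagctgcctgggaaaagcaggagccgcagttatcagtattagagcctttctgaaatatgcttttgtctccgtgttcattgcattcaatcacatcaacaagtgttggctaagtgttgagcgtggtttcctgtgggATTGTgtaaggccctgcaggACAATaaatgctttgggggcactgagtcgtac
Gja4 held 1 match and Bmx 2, on opposite strands. A match describes the letters alone and does not show that a factor is bound.

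Arterial barcodes made up a smaller share of the endothelium in WT than in FLOX or VC. The share was 1.86% in WT (95% Clopper-Pearson interval 1.41 to 2.40). FLOX had 5.38% (4.66 to 6.18) and VC 4.91% (3.95 to 6.01). The intervals of FLOX and VC overlapped, and WT lay below both. WT barcodes also held fewer markers. At least 4 of the 6 were detected in 20.7% of them, against 48.1% in FLOX and 52.3% in VC, although the WT barcodes were the deepest. With every endothelial barcode thinned to 2000 UMIs, which left out 29, 47 and 19 shallower ones, the shares were 1.23, 4.48 and 4.06%. With Stab2 still read at full depth they were 0.453, 3.87 and 3.38%. The WT share thus moved by more than 1.5 times with depth and stayed below the other two. Cells had been chosen by their staining for VE-cadherin, CD45, Ter119 and LepR before capture, and the part of that choice in these shares was not tested.

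At the edge of the rule, 19, 49 and 26 endothelial barcodes of WT, FLOX and VC with at most 1 Stab2 UMI held a single marker, and 227, 201 and 136 held at least 2 markers but more than 1 UMI of Stab2. Just outside, barcodes with 1 marker had Slc6a6, the taurine transporter, at 598, 1010.3 and 689 CPM. Just inside, those with exactly 2 had it at 1757, 1442 and 1194 CPM.

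**Figure D1:**
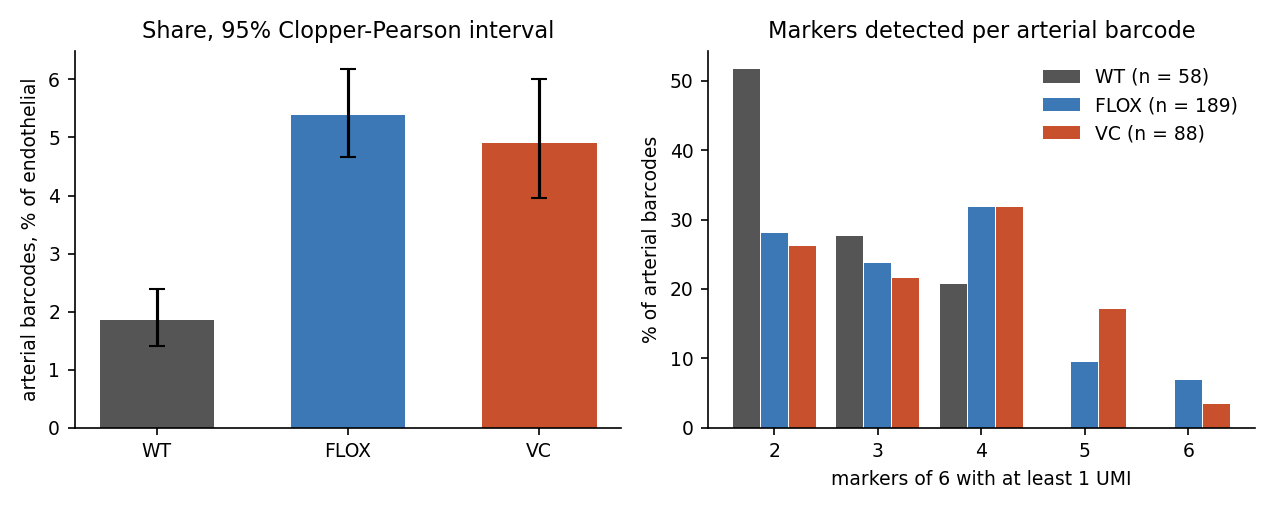
Left, arterial barcodes as a percentage of endothelial barcodes in WT, FLOX and VC, with 95% Clopper-Pearson intervals for counting error; right, the percentage of arterial barcodes with 2 to 6 of the markers detected. The WT share of 1.86% lies below the other two, and no WT barcode holds 5 or 6 markers.

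Across all 3 libraries the arterial barcodes shared a set of genes that the selection had not named. Of 3959 genes tested, 412 (10.4%) were at least 1.5 times as high in arterial as in other endothelial barcodes in every library, and 359 (9.07%) were at least 1.5 times lower in every library. These barcodes had been selected within the same cells, so the differences are a description. Against only those other endothelial barcodes with at most 1 Stab2 UMI, which number 79, 129 and 68, the counts were 274 higher and 207 lower.

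Ranked by the ratio in the library where it was smallest, and leaving out the genes of the rule markers of other cell types (Kitl among them, which also marks stroma), and mitochondrial, ribosomal, immunoglobulin, haemoglobin and sex-linked genes, the 12 highest were Nebl, Clic5, Rbp7, Emp2, Scube3, Cdh13, Rassf9, Ankrd33b, Mecom, Slc6a6, Tcf15 and Lims2. Slc6a6 was at 1916, 1899.8 and 1717 CPM in arterial barcodes of WT, FLOX and VC against 111, 113 and 101 CPM in the other endothelium. Its arterial level was nearly the same in the 3 libraries. Clic5, a chloride intracellular channel protein, was at 135, 248 and 284 against 5.29, 6.03 and 5.08 CPM. Rbp7, a carrier of retinol, was at 149, 212 and 142 against 6.31, 6.09 and 5.49 CPM. Emp2, an epithelial membrane protein, was at 19.7, 90.4 and 95.9 against 0.836, 1.43 and 1.42 CPM. Mecom, a zinc-finger transcription factor of arterial endothelium and blood stem cells, was at 54.9, 228 and 164 against 3.14, 8.26 and 5.17 CPM. Tcf15, a basic helix-loop-helix factor, was at 29.5, 141 and 161 against 1.77, 2.37 and 3.66 CPM. Nebl, an actin-binding protein, was at 14.1, 171 and 166 against 0.304, 1.72 and 1.46 CPM. For Mecom, Tcf15 and Nebl the WT arterial level was the lowest of the 3. All 12 ratios were smaller against only those other endothelial barcodes with at most 1 Stab2 UMI. Nebl and Emp2 had no UMI in the WT barcodes of that set, which counted as 3 UMIs. The smallest ratio of Nebl over the libraries, 2.06 in place of 46.3, was thus set by that limit. In FLOX, where it was detected, Nebl was at 171 against 18.6 CPM. The smallest ratio was 3.64 in place of 16.8 for Slc6a6 and 5.76 in place of 16.7 for Tcf15.

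By the same ranking and exclusions, the 12 genes furthest below the other endothelium were Cdkl1, Ston2, Sema3a, Cxadr, Ackr1, Dclk1, Igfbp2, Adgrg6, Rgs4, Adamts5, Mmrn1 and Ctgf. Adamts5, a protease that cleaves proteoglycans, was at 91.4, 122 and 131 CPM in arterial barcodes of WT, FLOX and VC against 2788, 2977 and 3926 CPM. Sema3a, a secreted semaphorin, was at 1.41, 8.73 and 6.12 against 447, 528 and 650.5 CPM. Ackr1, a chemokine-binding receptor of venules, was at 4.22, 8.10 and 7.14 against 261, 329 and 376 CPM. Against other endothelial barcodes with at most 1 Stab2 UMI all 12 ratios lay nearer to 1, for Adamts5 at most 0.129 in place of 0.0408. For lists of genes, members averaging at least 10 CPM counted as measured, a lower limit than the 50 CPM used for single genes. Of 12 sinusoidal genes measured all 12 were lower in every library, against 7.71% of all genes at that limit. The rule had used Stab2, a gene of the same cells. Mrc1, the macrophage mannose receptor, was at 253, 108 and 96.9 against 1689.8, 1562 and 1558 CPM. Flt4, the receptor for VEGF-C, was at 209.6, 129.6 and 120.4 against 668, 706 and 797 CPM. Both were lower in every library, and in both the WT arterial level was above the other 2 arterial levels. Of 10 venular and adhesion genes measured 5 were lower and 1 higher. Vcam1, an adhesion molecule for leukocytes, was at 143, 266 and 401 against 1422, 2775 and 2672 CPM. Selp, P-selectin, was at 60.5, 19.9 and 26.5 against 475, 399 and 360.4 CPM.

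**Figure D2:**
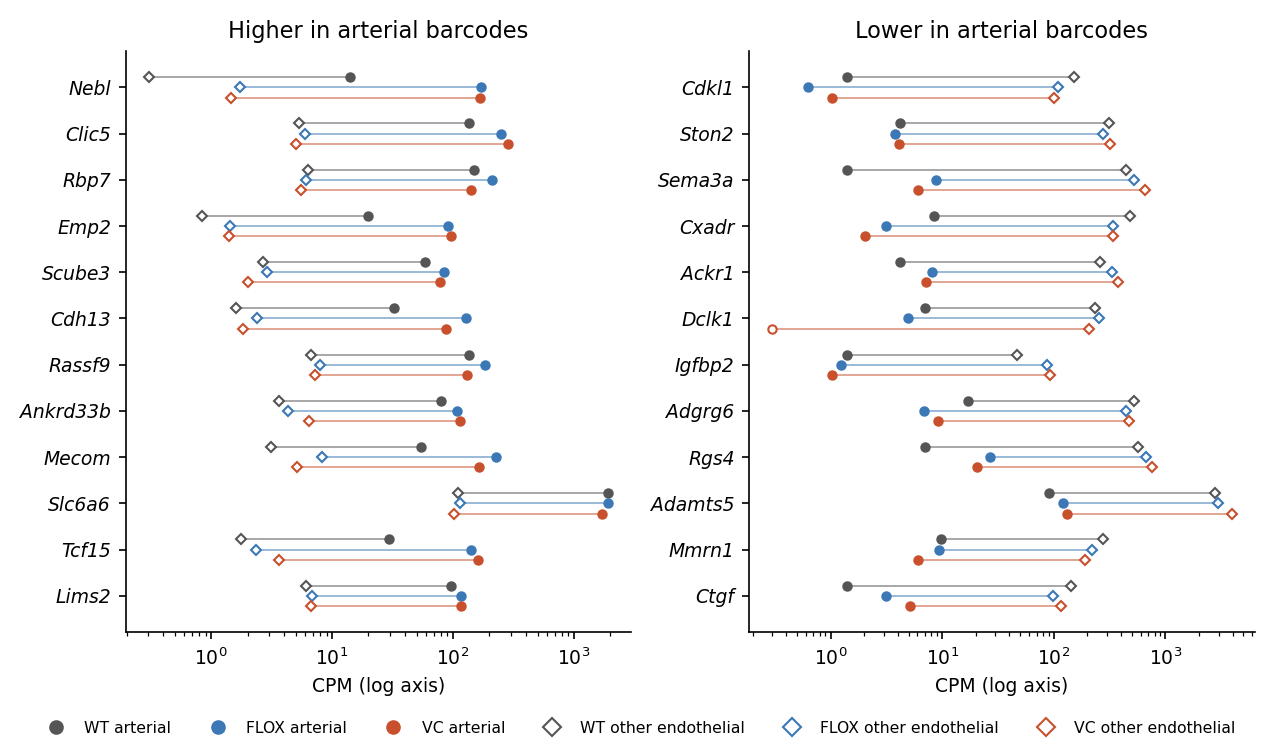
Levels in CPM on a log axis of the 12 genes ranked most above and the 12 ranked most below the other endothelium, genes of the rule and markers of other cell types left out, with filled circles for arterial and open diamonds for other endothelial barcodes, coloured by library; the open circle marks 0 UMIs (Dclk1 in VC), drawn at the left edge. In each row the circles and diamonds of all 3 libraries lie apart, as for Slc6a6 with 1916, 1899.8 and 1717 against 111, 113 and 101 CPM.

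Of the Notch genes 14 of 16 were measured, and 5 were higher in arterial barcodes of every library, 1 was lower and 8 met neither condition. At this limit 8.49% of all genes were higher and 7.71% lower in every library. These shares stand beside each count of higher and lower list genes in this and the following paragraphs on arterial against other endothelium. The list's median log2 ratio of arterial to other endothelium was 0.17 in WT, 0.52 in FLOX and 0.88 in VC, against -0.00, 0.09 and 0.04 over all genes. Among the ligands, Jag2 was at 76.0, 218 and 203 CPM across WT, FLOX and VC against 9.37, 9.27 and 7.09 CPM. Dll4, the main arterial ligand, was at 64.7, 119 and 125 against 58.1, 65.1 and 55.7 CPM and did not reach 1.5 times in WT. Among the receptors, Notch4, an endothelial one, was at 135, 127 and 100.0 against 43.1, 46.0 and 39.5 CPM. Notch1 was at 367, 342 and 358 against 321, 326 and 338 CPM, close to the rest of the endothelium in each library. Among the targets, Efnb2, the arterial ephrin ligand, was at 423, 456 and 377 against 45.1, 38.7 and 32.8 CPM. Hey1, a transcriptional repressor, was at 5.63, 66.7 and 64.3 against 0.380, 0.810 and 0.778 CPM. Efnb2 was thus alike in the arterial barcodes of the 3 libraries, and Hey1 was near 0 in WT.

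Of the arterial transcription factors 13 of 16 were measured, with 5 higher, 1 lower and list medians of 0.67, 0.53 and 0.58 in WT, FLOX and VC. Sox7, a relative of Sox17, was at 47.8, 51.1 and 59.2 against 19.9, 16.6 and 16.3 CPM. Hlx, a homeobox factor, was at 143, 125 and 93.9 against 19.2, 18.1 and 14.5 CPM. Epas1, which encodes HIF-2 alpha, was at 1031, 1066 and 1002 against 646, 588 and 512 CPM. These 3 did not share the low WT level of Mecom and Tcf15. Nr2f2, the factor of venous identity, was the lower gene, at 138, 75.4 and 134 against 645, 843 and 919 CPM. Of 11 genes of TGF-beta and BMP signalling 5 were higher and 2 lower, with medians of 0.46, 1.08 and 0.96. Id1, a target of BMP signalling, was at 665, 646 and 821 against 152, 116 and 134 CPM. Smad7, an inhibitor of the pathway, was at 139, 227 and 178 against 38.9, 40.1 and 38.8 CPM. Smad1, which carries BMP signals to the nucleus, was lower, at 134, 100.4 and 142 against 204, 198 and 229 CPM.

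Of the genes of blood flow and vessel tone 12 of 16 were measured, with 6 higher, 3 lower and medians of 0.68, 1.70 and 1.69 in WT, FLOX and VC. Klf2, a transcription factor induced by flow, was at 663, 1622 and 2388 CPM against 227, 198 and 297 CPM. It was higher in arterial barcodes of all 3 libraries, and its arterial level was lowest in WT and highest in VC. Nos3, the endothelial nitric oxide synthase, was at 42.2, 97.2 and 69.4 against 22.6, 24.8 and 21.8 CPM. Cav1, which builds caveolae, was at 315, 391 and 368 against 24.4, 17.6 and 17.1 CPM. Ednrb, the endothelin B receptor, was at 166, 211 and 224 against 18.7, 12.5 and 10.8 CPM. Thbd, thrombomodulin, was lower, at 326, 347 and 363 against 888, 883 and 911 CPM. Cav1 and Ednrb differed little between the arterial barcodes of the 3 libraries.

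Of the matrix genes of the elastic and basement layers 18 of 20 were measured, with 12 higher, 1 lower and medians of 1.21, 2.01 and 1.93. Col4a1, a collagen IV chain of basement membranes, was at 1924, 1414 and 1287 CPM across WT, FLOX and VC against 541, 511 and 545 CPM. Lama4, a laminin chain, was at 203, 136 and 124 against 30.1, 19.1 and 15.0 CPM. Eln, which encodes elastin, was at 21.1, 125 and 74.5 against 21.4, 30.3 and 21.1 CPM. Col4a1 and Lama4 were thus highest in WT, whereas Eln in WT arterial barcodes was at the level of the other endothelium. Nid1, nidogen 1, was the lower gene, at 409, 264 and 244 against 643, 575 and 613 CPM.

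Of 16 guidance genes measured 7 were higher and 0 lower, with medians of 0.63, 0.59 and 0.44. Sema7a, a membrane-anchored semaphorin, was at 63.3, 144 and 122 against 4.36, 5.99 and 6.54 CPM. Unc5b, a netrin receptor, was at 38.0, 69.2 and 82.6 against 7.90, 8.75 and 9.19 CPM. Of 11 junction genes 4 were higher, among them Jam2, a tight junction protein, at 284, 411 and 408 against 22.9, 22.3 and 22.8 CPM. Flt1, a receptor that binds VEGF-A, was at 2097, 1773 and 1674 against 675, 723 and 734 CPM. Of 11 capillary and lipid-uptake genes 3 were higher and 5 lower, against 8.49% and 7.71% of all genes. Gpihbp1, which carries lipoprotein lipase to the capillary surface, was at 1319.5, 1086 and 1103 against 515, 468 and 379.8 CPM. Kcnj8, a potassium channel subunit, was at 74.6, 28.7 and 48.0 against 388, 291 and 297 CPM.

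Of 18 niche factors 9 were measured, and 4 were higher and 2 lower in arterial barcodes. Kitl, stem cell factor, was at 264, 709 and 505 CPM across WT, FLOX and VC against 13.4, 19.4 and 14.4 CPM. It was detected in 67.2, 83.6 and 83.0% of arterial barcodes. The share was 1.15, 3.33 and 0.690% in leukocyte-like barcodes, those with Ptprc and no endothelial or stromal marker, whose median depth was 8668.5, 9497 and 9349 UMIs. Most arterial barcodes of each library therefore held Kitl, and its level was lowest in WT. Pdgfb, the growth factor that recruits mural cells, was at 248, 199 and 237 against 127, 101 and 118 CPM. Tgfb2, a secreted TGF-beta, was at 7.03, 125 and 110.2 against 0.811, 1.65 and 1.01 CPM. Bmp4 was among the lower genes, at 1.41, 1.25 and 1.02 against 40.1, 37.9 and 44.6 CPM. Cxcl12 was at 678, 1664 and 1175 against 55.8, 91.6 and 60.6 CPM, but the rule removed barcodes with 50 or more of its UMIs, so these levels have a ceiling. The ceiling took out 1, 18 and 14 barcodes that would otherwise have been arterial.

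Vegfc, the targeted gene, was near the detection limit in arterial barcodes of every library. WT held 2 UMIs, FLOX 9 and VC 0, or 2.81, 5.61 and 0 CPM. The 0 of 88 VC barcodes allows up to 3.41% of barcodes with a UMI, and 0 UMIs allow 3.06 CPM. The 95% Poisson interval was 0.341 to 10.2 CPM in WT and 2.57 to 10.6 CPM in FLOX. The VC limit lay inside the WT interval, so the counts do not tell VC apart from WT at this depth. It lay near the lower end of the FLOX interval, and whether VC was below FLOX was not tested. Of the other endothelial barcodes 1.93, 0.542 and 0.235% held a Vegfc UMI across WT, FLOX and VC, and the interval of WT (1.47 to 2.48%) lay above those of FLOX (0.322 to 0.855%) and VC. The share in leukocyte-like barcodes was 0, 1.39 and 0.690%, so the other endothelial shares of FLOX and VC were no higher than it. The labels do not say which part of Vegfc is deleted, so the count may not report on the deletion.

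Among the arterial barcodes themselves, levels differed with the number of markers detected. Fbln5, a fibulin of elastic fibres, stood at 111 CPM in FLOX barcodes with exactly 2 markers, 325 with 3 and 890.2 with 4 or more. In VC it stood at 80.1, 277 and 709.8 CPM in the same order. Stmn2, a tubulin-binding protein, stood at 26.5, 144 and 593 CPM in FLOX and at 12.7, 123 and 411 CPM in VC. Both genes were highest where most markers were found. Gpihbp1 stood at 1542, 1601 and 663 CPM in FLOX and at 1429.7, 1513 and 816 CPM in VC, lowest where most markers were found. In WT it stood at 1323, 1268 and 1382 CPM, without that drop, but the last WT set held exactly 4 markers and none with more. The number of markers is itself part of the rule, so this order is a description.

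The barcodes with a UMI of Gja5 or Bmx, 43 in FLOX, 23 in VC and 0 in WT, stood at the end of this order. Stmn2 was at 886 CPM in those of FLOX and 588 in those of VC. Jag1, a Notch ligand, was at 258 and 152 CPM. Hey1 was at 157 and 181 CPM and Eln at 272 and 120.3 CPM. Gpihbp1 was at 263 and 651 CPM there, against 1366 and 1286 CPM in the arterial barcodes of FLOX and VC with neither gene. Slc6a6 differed less between the sets, at 1599.5 and 1565 CPM with and 2002 and 1779 CPM without.

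Some genes with clear levels in FLOX and VC arterial barcodes were near 0 in those of WT. Of 3585 genes compared between libraries, 223 (6.22%) were at least 1.5 times lower in WT than in both FLOX and VC, by a ratio larger than that between FLOX and VC, and 189 (5.27%) were higher by the same rule. Under median-of-ratios scaling 253 were lower and 142 higher. Without the mixed barcodes 216 were lower and 117 higher. With FLOX as the odd library 16 genes were higher (0.446%) and 27 lower (0.753%), or 11 and 30 under median-of-ratios scaling. By this rule WT was the library with the most genes apart from the others. It also had the fewest arterial UMIs, 710870 against 1604359 in FLOX and 980145 in VC. FLOX, with the most UMIs, had the fewest such genes, and the part of counting error in these counts was not tested. Of the 18 matrix genes, 5 were lower and 2 higher in WT, against 9.49% and 7.36% of all genes at the list limit, with a median log2 difference from WT of -0.38 in FLOX and -0.20 in VC, so the median of that list was not lower in WT.

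The genes named here were picked with their values in view, from the 15 lower genes with the largest ratio once mixed barcodes were left out. Stmn2 had 1 UMI in all WT arterial barcodes, or 1.41 CPM (95% Poisson interval 0.0356 to 7.84), against 356 in FLOX and 257 in VC. Fn1, fibronectin, was at 1.43, 250.4 and 226 CPM across WT, FLOX and VC without mixed barcodes. Col8a1, a short-chain collagen of the vessel wall, had no UMI in WT and was at 114 CPM in FLOX and 100.0 in VC. With WT set at 3 UMIs these were 27.0-fold and 23.7-fold higher, and the lower ends of the 95% counting intervals were 21.8 and 18.9. WT was near 0 in each of these genes. Edn1, the vasoconstrictor endothelin 1, was at 2.86, 67.1 and 102 CPM without mixed barcodes. Tmem100, a target of BMP signalling in arterial endothelium, had no UMI in WT and was at 77.9 CPM in FLOX and 70.4 in VC. Clu, clusterin, was at 8.57, 161 and 164 CPM without mixed barcodes. FLOX and VC were close to each other in Tmem100 and Clu and well above WT in all of them.

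The gap was also seen among barcodes without a UMI of Gja5 or Bmx, where 174 genes were lower and 108 higher in WT. In these, Stmn2 was at 1.41, 175 and 123 CPM across WT, FLOX and VC. Fbln5 was at 85.8, 377 and 281 CPM and Kitl at 264, 728 and 398 CPM in the same barcodes. Among barcodes with 4 or more markers, of which WT held 12, Fbln5 was at 138, 890.2 and 709.8 CPM. Jag1 was at 5.98, 163 and 124 CPM there. These sets are not matched: the 12 of WT all held exactly 4 markers. Of the 91 in FLOX, 18 held 5 and 13 held 6, and of the 46 in VC, 15 held 5 and 3 held 6. WT was the lowest in each of these comparisons. Efnb2, by contrast, was at 634, 517 and 436 CPM in barcodes with 4 or more markers, with WT the highest, and Slc6a6 was at 1903, 2095 and 1949 CPM.

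Genes higher in WT arterial barcodes differed by smaller ratios. Aplnr, the apelin receptor, was at 339, 102 and 86.7 CPM across WT, FLOX and VC. Btnl9, a butyrophilin-like gene, was at 1697, 829 and 787 CPM. Col15a1, a basement membrane collagen, was at 111, 26.2 and 46.9 CPM. Of 12 sinusoidal genes 4 were also higher in WT, against 7.36% of all genes at the list limit. Fcgr2b, an Fc receptor of sinusoids, was at 315, 136 and 102 CPM, and Mrc1 at 253, 108 and 96.9 CPM. Stab2, allowed at up to 1 UMI per barcode by the rule, was detected in 46.6, 17.5 and 23.9% of arterial barcodes of WT, FLOX and VC and in 8.40, 10.3 and 6.90% of leukocyte-like barcodes. The rule had used Stab2, and the WT barcodes were the deepest, so this share supports nothing about the sinusoidal genes. Of the list of other arterial genes 10 of 18 were lower in WT and 0 higher, against 9.49% of all genes lower at this limit. Of 12 heat shock genes 6 were also lower in WT, and their part in the result was not tested.

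**Figure D3:**
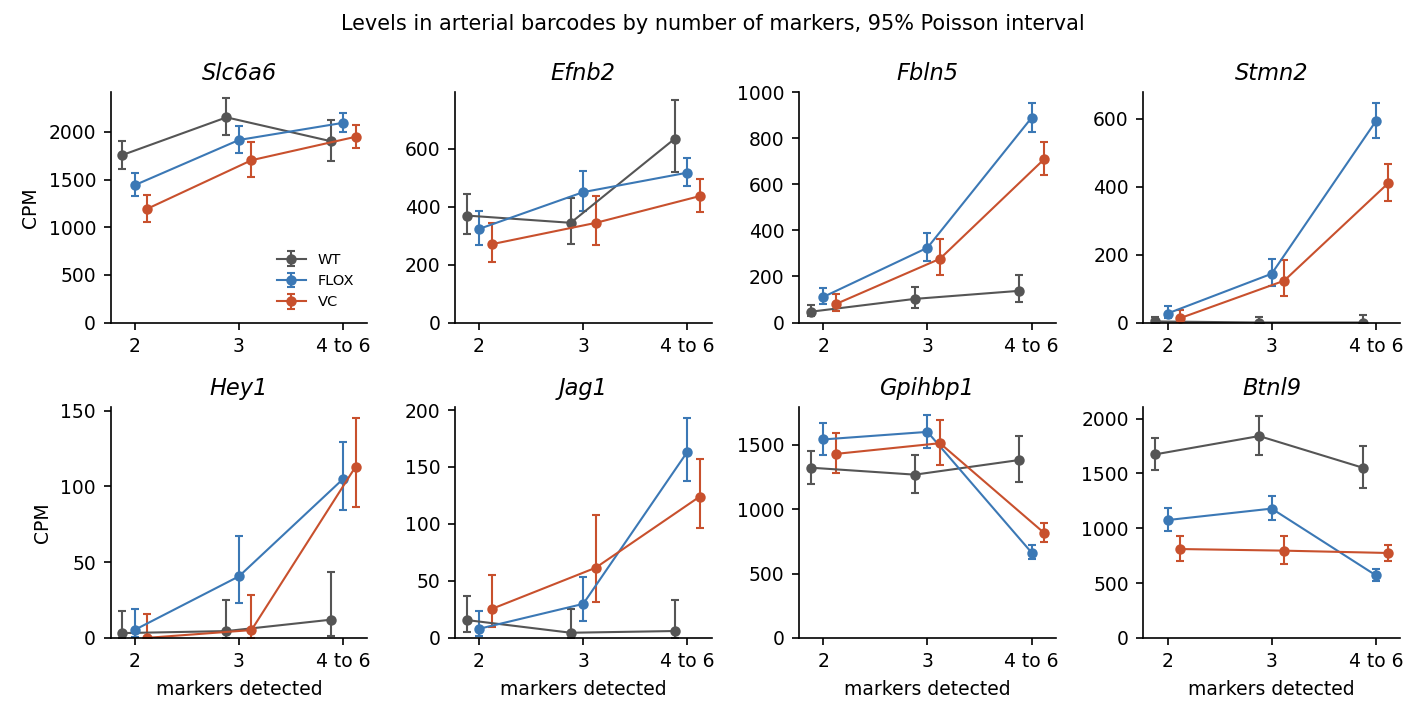
CPM in arterial barcodes with 2, 3 or 4 to 6 of the markers for 8 genes, with 95% Poisson intervals for counting error and 1 line per library. Fbln5 and Stmn2 reach 890.2 and 593 CPM in FLOX and stand at 138 and 0 CPM in WT at 4 to 6 markers, whereas Slc6a6 stands at 1903, 2095 and 1949 CPM across WT, FLOX and VC. The WT barcodes of that set hold exactly 4 markers.

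Genes that interferons induce and genes of antigen presentation were higher in VC arterial barcodes than in those of either control. Interferons are cytokines that switch on antimicrobial GTPases, chemokines and the machinery that shows peptides to T cells. Of the 3585 genes, 69 (1.92%) were at least 1.5 times as high in VC as in either control by a ratio larger than that between the controls, and 38 (1.06%) were lower. Of the 69, 36 belong to the lists of interferon-induced, class I and class II genes. The lists were chosen with earlier results of these data known, so this overlap is a description. Without the mixed barcodes 77 were higher and 48 lower. Under median-of-ratios scaling 84 were higher and 15 lower, and with each barcode weighted alike 78 and 61. In the other endothelial barcodes 57 of 3424 genes (1.66%) were higher in VC and 2 (0.0584%) lower.

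Cxcl9, a chemokine that attracts T cells, was at 11.3, 18.1 and 686 CPM in arterial barcodes of WT, FLOX and VC and at 212, 166 and 3536 CPM in the other endothelium. In arterial barcodes VC was 37.9 times as high as FLOX (95% counting interval 26.2 to 57.1), and 223 of its 672 VC UMIs lay in 1 barcode. It was detected in 12.1, 12.2 and 36.4% of arterial barcodes, 59.1, 47.0 and 74.5% of other endothelial and 1.15, 1.39 and 16.6% of leukocyte-like barcodes. In each library the arterial level and share of Cxcl9 were below those of the other endothelium. Cxcl10, a related chemokine, had no UMI in WT or FLOX arterial barcodes and was at 147 CPM in VC.

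The immunity-related GTPases and guanylate-binding proteins, which act against microbes inside cells, were also higher in VC. Igtp was at 21.1, 39.3 and 466 CPM across WT, FLOX and VC, 11.9 times as high in VC as in FLOX (9.11 to 15.7). It was detected in 19.0, 22.8 and 68.2% of arterial and 9.16, 11.7 and 17.9% of leukocyte-like barcodes, so most VC arterial barcodes held it. Gbp2 was at 49.2, 51.1 and 416 CPM and Gbp4 at 142, 140.2 and 729 CPM. Iigp1 was at 207, 163 and 1428 CPM. In the other endothelium Igtp was at 21.8, 24.7 and 229 CPM and Gbp2 at 35.7, 30.0 and 197 CPM. In VC both stood higher in arterial than in other endothelial barcodes, the opposite order to Cxcl9. Gbp4 did so too, with 485 CPM in the other endothelium of VC. Iigp1 had the order of Cxcl9, with 2294 CPM there. Ubd, a ubiquitin-like protein, was at 57.7, 46.1 and 479.5 CPM in arterial barcodes. Wars, a tryptophan tRNA ligase, was at 50.6, 71.7 and 408 CPM. Serpina3g, a serpin, was at 12.7, 19.3 and 118 CPM and F830016B08Rik at 23.9, 17.5 and 125 CPM. WT and FLOX were close to each other in all of these genes next to the distance of VC. In the other endothelium of VC, Ubd, Serpina3g and F830016B08Rik were at 2899, 426 and 190 CPM, above their arterial levels. Wars was at 112 CPM there, below its arterial level.

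The promoters of 3 of these genes are shown with matches to TTTCNNTTTC, a core of the interferon-stimulated response element, and to TTCNNNGAA, a core of the gamma-activated site of interferon-induced genes, in capitals. Both strands were searched, the second motif reads the same on both, and the 2 motifs can share bases. The sequences are again the 250 bases before the start from the RefSeq table of GRCm38.p6, read on the gene's strand. Igtp lies at chr11:58199306-58199555 on the plus strand, Gbp2 at chr3:142620413-142620662 on the plus strand and Cxcl10 at chr5:92348890-92349139 on the minus strand.
Igtp: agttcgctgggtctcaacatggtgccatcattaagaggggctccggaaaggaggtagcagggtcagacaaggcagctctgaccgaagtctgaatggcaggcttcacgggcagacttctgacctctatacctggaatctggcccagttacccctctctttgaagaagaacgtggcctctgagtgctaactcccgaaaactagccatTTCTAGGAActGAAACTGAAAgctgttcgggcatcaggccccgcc
Gbp2: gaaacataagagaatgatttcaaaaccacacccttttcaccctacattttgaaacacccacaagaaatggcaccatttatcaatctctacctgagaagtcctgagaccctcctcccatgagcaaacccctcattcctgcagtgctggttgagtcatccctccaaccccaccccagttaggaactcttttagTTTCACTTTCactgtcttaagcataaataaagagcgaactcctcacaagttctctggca
Cxcl10: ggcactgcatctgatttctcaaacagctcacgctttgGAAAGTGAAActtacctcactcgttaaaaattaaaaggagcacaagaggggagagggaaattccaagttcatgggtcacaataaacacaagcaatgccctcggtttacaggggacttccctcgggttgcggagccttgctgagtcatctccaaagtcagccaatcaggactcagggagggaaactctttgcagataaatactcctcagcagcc
Igtp held 1 match to each motif, and Gbp2 and Cxcl10 held 1 match to the first. Over the whole table, genes with the first motif made up 3.46% and with the second 8.13%. Of 15 class I genes 13 had an entry, and 2 of these held the first motif and 1 the second. Of the 69 genes higher in VC 55 had an entry, or 79.7%, which is under the minimum of 80% set for a share, so none is given for them.

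Of 39 interferon-induced genes measured, 31 exceeded both controls in VC and 0 fell short of both, against 2.3% of all genes higher and 4.3% lower at the list limit. The list's median log2 difference of VC was 2.26 from WT and 2.11 from FLOX, and that of FLOX from WT was 0.07. Over all genes these medians were -0.10, -0.08 and -0.03. In the other endothelium the list's medians were 1.65 from WT and 1.90 from FLOX. Ifi27, an interferon-induced mitochondrial protein, was among the 8 that did not pass, at 169, 194 and 203 CPM. Rsad2, viperin, was another, at 325, 223 and 367 CPM.

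Of 15 class I genes, which show peptides from inside the cell to CD8+ T cells, 13 were higher in VC. The list's medians were 1.59 from WT and 1.24 from FLOX, with 0.54 between FLOX and WT. H2-T23, a non-classical class I chain, was at 155, 165 and 613 CPM. Tap1, a peptide transporter, was at 23.9, 46.1 and 222 CPM. B2m, the shared light chain, was at 959, 982 and 2179 CPM. FLOX stood between WT and VC in these 3, nearer to WT.

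Class II genes, which present antigen to CD4+ T cells, were at few UMIs in WT, higher in FLOX and highest in VC. H2-Ab1 was at 8.44, 54.9 and 336 CPM across WT, FLOX and VC. H2-Aa was at 1.41, 24.9 and 303 CPM. Cd74, the invariant chain, was at 1.41, 52.98 and 521 CPM. Of 7 genes only Ciita passed the rule for VC. In 3 of the others WT had no UMI, and in the other 3 the ratio of FLOX to WT was larger than that of VC to FLOX. With the genes at 0 in WT set at 3 UMIs, the median log2 difference was 3.30 from FLOX to VC and 1.70 from WT to FLOX. Ciita, the master regulator of class II genes, was at 2.81, 6.86 and 76.5 CPM. It was detected in 3.45, 4.76 and 38.6% of arterial barcodes, 1.08, 1.02 and 18.1% of the other endothelium and 4.20, 4.17 and 8.28% of leukocyte-like barcodes. Its VC share was above that of both other sets. Cd74 was at 711, 1628 and 1938 CPM in leukocyte-like barcodes of WT, FLOX and VC, and at 1.43, 63.4 and 574 CPM in arterial barcodes without the mixed ones.

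Within VC the interferon genes differed over the arterial range. Cxcl9 was at 1999 CPM in barcodes with 2 markers, 908 with 3 and 38.3 with 4 or more, beside 12.4 CPM in leukocyte-like barcodes of VC. Igtp was at 641, 600.1 and 343 CPM in the same order. Gbp2 was at 552, 698 and 257 CPM. The barcode with 223 Cxcl9 UMIs held 2 markers, and without it that set was at 1128 CPM. With or without it, Cxcl9 was lowest in barcodes with 4 or more markers. In barcodes with Gja5 or Bmx, Igtp was at 24.5 CPM in FLOX and 350.4 in VC. Gbp2 was at 29.4 and 248 CPM in those barcodes. VC stood above FLOX in both genes there.

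**Figure D4:**
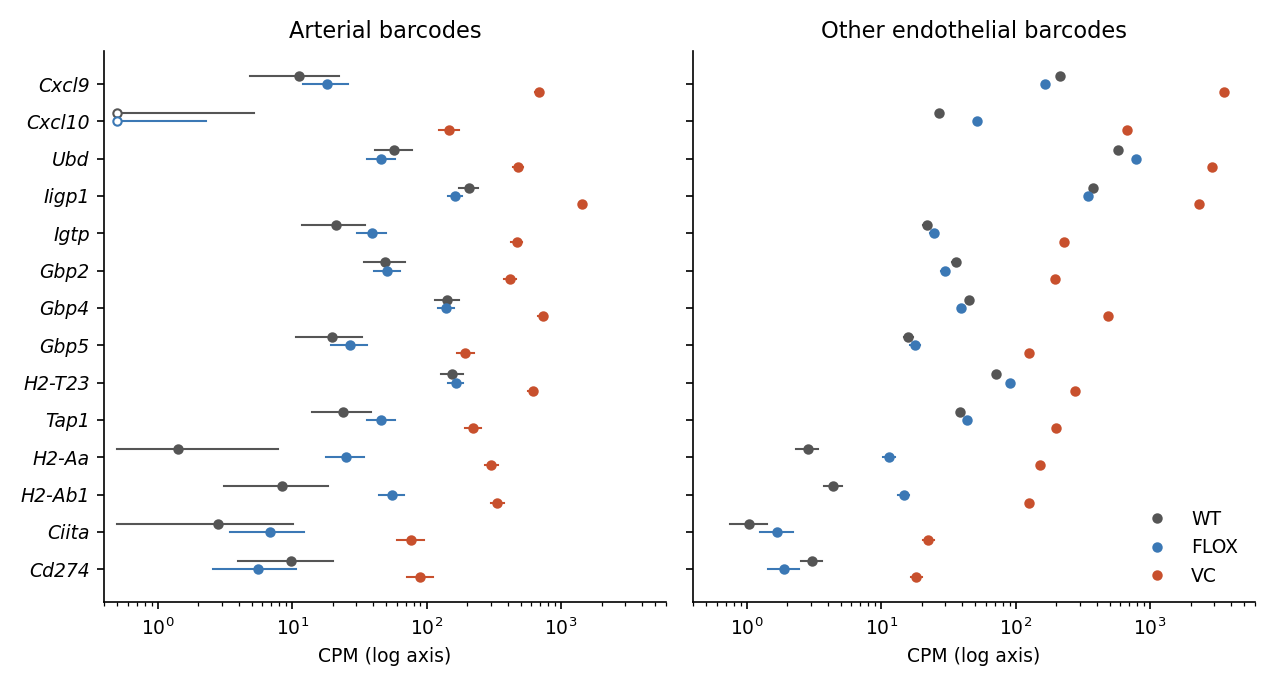
CPM on a log axis of 14 interferon-induced and antigen presentation genes in arterial (left) and other endothelial barcodes (right), 1 point per library with 95% Poisson intervals for counting error; open circles mark 0 UMIs, drawn at 0.5 CPM. VC lies to the right of WT and FLOX in every row, and Cxcl9 in VC is at 686 CPM on the left and 3536 CPM on the right.

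Of the 69 genes higher in VC, 33 were outside these 3 lists. Of 13 immediate early genes, which respond within minutes to stimuli that include tissue digestion, 5 were higher in VC, against 2.3% of all genes at the list limit. Atf3, a stress-induced transcription factor, was at 21.1, 34.9 and 106 CPM. Zfp36, which destabilises cytokine mRNAs, was at 127, 161 and 343 CPM. Of 12 heat shock genes 0 were higher in VC, and the part of digestion in these values was not tested. Ly6a, which encodes Sca-1 and is induced by interferons, was at 1128, 1985 and 2678 CPM in arterial barcodes and at 216, 283 and 803 CPM in the other endothelium. Relative to FLOX, VC was 1.35 times as high in arterial and 2.83 times as high in other endothelial barcodes. In arterial barcodes Ly6a thus stayed under 1.5 times and was not among the 69. Igfbp5, a binding protein of insulin-like growth factors and also among the 12 genes most above the controls, was at 30.9, 24.9 and 289 CPM. In VC, 243 of its UMIs came from 1 barcode that also held 106 UMIs of the fibroblast gene Dcn, and without mixed barcodes Igfbp5 was at 31.4, 25.6 and 34.4 CPM. With the VC barcode that held most UMIs of each gene left out, 63 of the 69 genes stayed at least 1.5 times above both controls.

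The 38 genes lower in VC were at most 1.94 times below the nearer control. The 12 with the largest difference were Nostrin, Dusp23, Aqp1, Csnk1g2, Dgkz, Frmd4a, Ppt1, Tbxa2r, Zc3h14, Mtf2, Sgk3 and Tex2. Aqp1, the water channel of endothelium, was at 338, 206 and 120.4 CPM in arterial barcodes of WT, FLOX and VC and at 699, 751 and 705 CPM in the other endothelium, where VC did not stand apart. Nostrin, which traffics nitric oxide synthase, was at 83.0, 77.3 and 39.8 CPM. With the barcode that held most UMIs of each gene left out of each control, 22 of the 38 stayed at least 1.5 times lower in VC.

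Among the niche factors, 0 of 7 measured in arterial barcodes set VC apart from both controls, and 4 were lower in WT, against 9.49% of all genes. Kitl in VC was 1.91 times the WT level (1.61 to 2.27) and 0.712 times the FLOX level (0.639 to 0.792), between the 2 controls. Pdgfb was at 248, 199 and 237 CPM and Tgfb1 at 276, 178 and 210.2 CPM, and neither set VC apart.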

How the data were processed

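The authors deposited 1 filtered 10x matrix of raw UMI counts per gene and barcode for each of the 3 libraries, per the file headers, with no cell annotation used here. Cell Ranger 2.1.1, Seurat 3.1 and mm10 appear in the submitters' processing notes, and the matrix header gives software version 3.1.0. Cells with at least 500 genes and at most 10% mitochondrial UMIs were kept. No doublet caller was run, and mixed barcodes were marked by fixed limits instead.

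UMIs were summed over arterial barcodes of a library and scaled to 1000000 UMIs (CPM). Counts carry exact Poisson and shares exact Clopper-Pearson 95% intervals, which cover counting error only; a count of 0 is given instead as its limit of 3 counts. Genes were compared where the mean level reached 50 CPM and 50 UMIs (lists 10 CPM), and a difference was counted from 1.5-fold, in every library for arterial against other endothelium, and against both other libraries, by more than those differed, between genotypes. No test was made. The named genes were the markers and genes of the rule, the 12 with the largest difference in each direction of each comparison and up to 4 genes of each list by level or ratio; further list genes were added by their role with their values in view. The members, lists and limits were chosen with earlier results of these data known. The counting rules were run on simulated sums with Poisson error only and changes larger than 1.5-fold. That run does not cover changes near 1.5-fold or genes with most UMIs in 1 barcode. Python 3.11.15, numpy 2.4.6, scipy 1.17.1, pandas 2.3.3 and matplotlib 3.10.9 were used. RefSeq promoters of GRCm38.p6 were matched by symbol.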

Additional observations from a re-analysis of the deposited data

Results flagged for a closer look

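Barcodes with 50 or more UMIs of Cxcl12 were kept out of the endothelium by the rule, and they were looked at because they hold signal outside the main comparison. Of these high-Cxcl12 barcodes, 51.9% in VC met every other arterial condition (14 of 27, 95% Clopper-Pearson interval 31.9 to 71.3). The share was 3.70% in WT (1 of 27) and 16.1% in FLOX (18 of 112). In the 1, 18 and 14 barcodes that met them, Sema3g was at 685, 611 and 689 CPM across WT, FLOX and VC, and Kitl at 1321, 1497 and 966 CPM. Adipoq, the stromal marker, had 0, 72 and 19 UMIs in these, in 0, 7 and 1 barcodes, and its part in the Cxcl12 level was not tested.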

How the results depend on the processing

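Of the main results, 175 values under the alternatives kept within the limits set for them and 32 moved, and of the values of single genes 455 kept within them, 48 moved and 1 reversed. The arterial share in WT, FLOX and VC was 0.897, 3.87 and 3.63% with at least 3 markers and 0.994, 4.44 and 3.74% with Stab2 at 0 UMIs. Thinned to 2000 UMIs it was 1.23% in WT and 4.48% in FLOX, and with Stab2 read at full depth 0.453, 3.87 and 3.38%. WT was the lowest in each of these. Genes higher and lower in arterial barcodes numbered 736 and 698 from 10 CPM and 20 UMIs, and 274 and 207 against other endothelium with at most 1 UMI of Stab2. From 10 CPM and 20 UMIs, 621 genes were higher and 800 lower in WT, 140 and 182 in FLOX, and 194 and 363 in VC. Genes higher in WT numbered 117 without mixed barcodes and 108 without Gja5 or Bmx. Genes higher in FLOX numbered 27 with at least 3 markers, 31 with Stab2 at 0 and 10 without mixed barcodes. Genes lower in VC numbered 20 with Cxcl12 below 200 UMIs, 61 with barcodes weighted alike, 15 under median-of-ratios scaling and 68 without Gja5 or Bmx. That scaling shifted all genes by 0.10 on the log2 scale between VC and WT and by 0.08 between VC and FLOX. With at least 3 markers the class II median log2 difference was 4.13 from WT to VC and 1.01 from WT to FLOX, and the smaller VC fold of Igfbp5 was 0.592. The thinning with Stab2 at full depth, the removal of mixed barcodes that of Gja5 or Bmx barcodes and that of the barcode with most Cxcl9 were chosen after seeing the data. The causes of these moves were not tested. No paired analysis was possible because each genotype has 1 library. Depth limits genes with few UMIs in the 58 WT barcodes, where a count of 0, taken as 3 UMIs, allows 4.22 CPM.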
